A study of Homo sapiens with 36 samples.

Results

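The comparison covers MEC-1 cells given both gapmers against the long non-coding RNA CYTOR (gapmer 1+2), set against MEC-1 cells given a scrambled gapmer in the same experiment. It holds 3 gapmer 1+2 arrays and 3 scrambled arrays, 6 of the 36 arrays of the study, chosen by their titles and by no measured value. MEC-1 is an established line of human B cells from a patient with chronic lymphocytic leukaemia (CLL), and it was used throughout. Cells took up the gapmers, which are short antisense oligonucleotides built with locked nucleic acid, without a transfection reagent. The labels give 1 µM of each gapmer and 4 days for all groups, so cells given gapmer 1+2 may have received more oligonucleotide in total. The further groups used here, of 3 arrays each, were CYTOR gapmer 1 alone, CYTOR gapmer 2 alone, and the gapmer 1+2 and scrambled groups of 2 parallel experiments on the long non-coding RNAs LINC00158 and RP11-161H23.5. The labels do not say whether the arrays of a group came from separate cultures, so every p-value below measures the spread between these arrays only.

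A gapmer pairs with its target RNA, and RNase H1 then cuts the RNA strand of the pair, so its target is normally expected to become scarcer. CYTOR, also known as LINC00152, is a cytoplasmic long non-coding RNA that has been studied for its part in proliferation, adhesion and migration of tumour cells. MIR4435-2HG is a near-identical relative of CYTOR, and the 2 RNAs share long stretches of sequence, so their array units may read each other's RNA.

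All values are deposited log2 signals of array units, which are groups of probes for 1 transcript region, and a change is gapmer 1+2 minus scrambled on that log2 scale. The median unit read 3.84 to 3.88 on the gapmer 1+2 arrays and 4.04 to 4.09 on the scrambled arrays. Values ran up to a ceiling of 19.93, which 246 to 248 units reached on each gapmer 1+2 array and 200 to 231 on each scrambled array. Bright units often held exactly the same value on different arrays. Of 7583 bright units, 0.343% to 0.738% were identical between a gapmer 1+2 and a CYTOR scrambled array. The share was 4.21% to 6.29% between gapmer 1+2 and single-gapmer CYTOR arrays, and 3.34% to 5.79% among the 9 scrambled arrays of the 3 experiments. By this measure the treated CYTOR arrays form 1 set and the scrambled arrays another, and the sources used here do not say whether the sets were summarised separately. Since no set holds both, set and treatment cannot be told apart. Differences are therefore stated as differences between arrays. The mean absolute log2 difference was 0.333 to 0.345 between gapmer 1+2 arrays and 0.399 to 0.443 between CYTOR scrambled arrays, against 0.479 to 0.52 across the groups.

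The line showed its B-cell identity on the arrays. All 9 measured B-cell markers had a mean log2 signal of at least 6 over the 12 CYTOR arrays, and their median was 11.19 with gapmer 1+2 and 11.14 with scrambled gapmer. No measured marker of T and NK cells (11), of myeloid cells (11) or of erythroid cells and platelets (9) had a mean of at least 6. Among 11 stromal and epithelial markers 1 did, the collagen gene COL1A1, as a mean over the 12 CYTOR arrays. The log2 of the summed signal of the myeloid markers was 7.49 to 7.75 with gapmer 1+2 and 8.09 to 8.42 with scrambled gapmer. That of the stromal and epithelial markers was 8.595 to 8.83 with gapmer 1+2 and 9.13 to 9.67 with scrambled gapmer, so neither sum overlapped between the groups. Of all named genes tested 31.3% did not overlap either, and dim units with a mean signal from 4 to 5 had a median change of -0.24. The median of the myeloid markers went the other way, at 3.89 with gapmer 1+2 and 3.79 with scrambled gapmer. The median of the stromal and epithelial markers was 4.68 with gapmer 1+2 and 5.38 with scrambled gapmer. The labels name only the MEC-1 line for every array, and the part of other cell types in the results below was not tested. In bulk RNA, fewer cells of a type and less RNA per cell cannot be told apart.

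The CYTOR unit was higher, not lower, with the gapmers directed against it. It read 6.07, 6.49 and 6.24 on the gapmer 1+2 arrays and 5.25, 5.27 and 5.51 on the scrambled arrays. The groups did not overlap, and the change was 0.92 (SE 0.24, limma adjusted p = 0.0360), or 1.21 after quantile normalization (limma adjusted p = 0.0181). An exact two-sided permutation test of the 6 values gave p = 0.1, the smallest that 3 arrays against 3 allow. The call was lost in each of the 6 fits that left out 1 array, where the adjusted p ran from 0.0539 to 0.113, and with the replicate number as a block (limma adjusted p = 0.0599). The choice of scrambled group set the size of the change. The CYTOR unit averaged 6.27 ± 0.21 (SD, n = 3) with gapmer 1+2, and the change was 0.06 when the LINC00158 scrambled arrays served as control and 1.45 with the RP11-161H23.5 ones.

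The MIR4435-2HG unit went the other way. It read 4.33, 4.45 and 4.56 with gapmer 1+2 and 5.22, 5.15 and 5.33 with scrambled gapmer, with no overlap. The change was -0.79 (SE 0.19, limma adjusted p = 0.0244), but -0.47 and not called after quantile normalization (limma adjusted p = 0.187). It was -1.06 with the LINC00158 scrambled arrays as control and -0.33 with the RP11-161H23.5 ones, and it was called in 1 of the 6 fits that left out 1 array. The labels do not say which parts of the RNA the gapmers or the array units match.

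**Figure D1:**
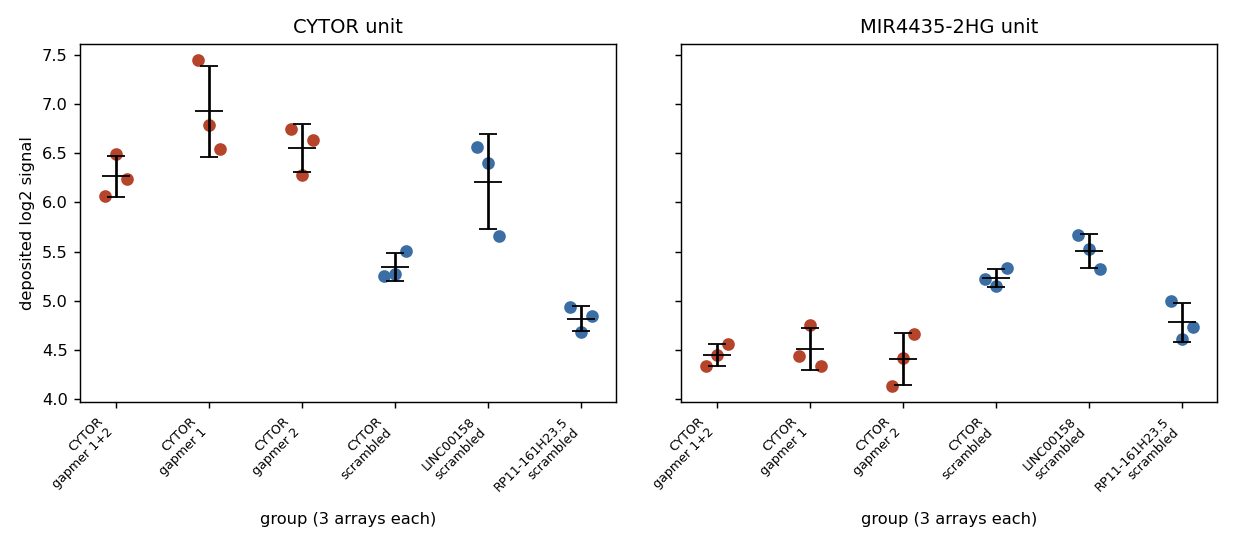
Deposited log2 signal of the CYTOR unit (left) and the MIR4435-2HG unit (right) on each of the 3 arrays of 6 groups, with the group mean and SD as bars. The 3 gapmer 1+2 arrays lie above the CYTOR scrambled arrays for CYTOR and below them for MIR4435-2HG, and the scrambled groups of the 3 experiments differ among themselves.

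Across the genome, more transcripts were called lower than higher with gapmer 1+2, and this imbalance was not seen after quantile normalization. Of 67888 units tested with limma, 7104 were called (10.5%), with 1044 higher (1.54%) and 6060 lower (8.93%). The median unit changed by -0.20. After quantile normalization, which makes the distribution of all arrays equal, the median change was 0.03 and 2909 units were called (4.28%), with 1468 higher (2.16%) and 1441 lower (2.12%). Units with a mean signal from 5 to 6 had a median change of -0.26, and units of 14 and above 0.10. After quantile normalization the medians of the 8 signal ranges lay between 0 and 0.07.

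**Figure D2:**
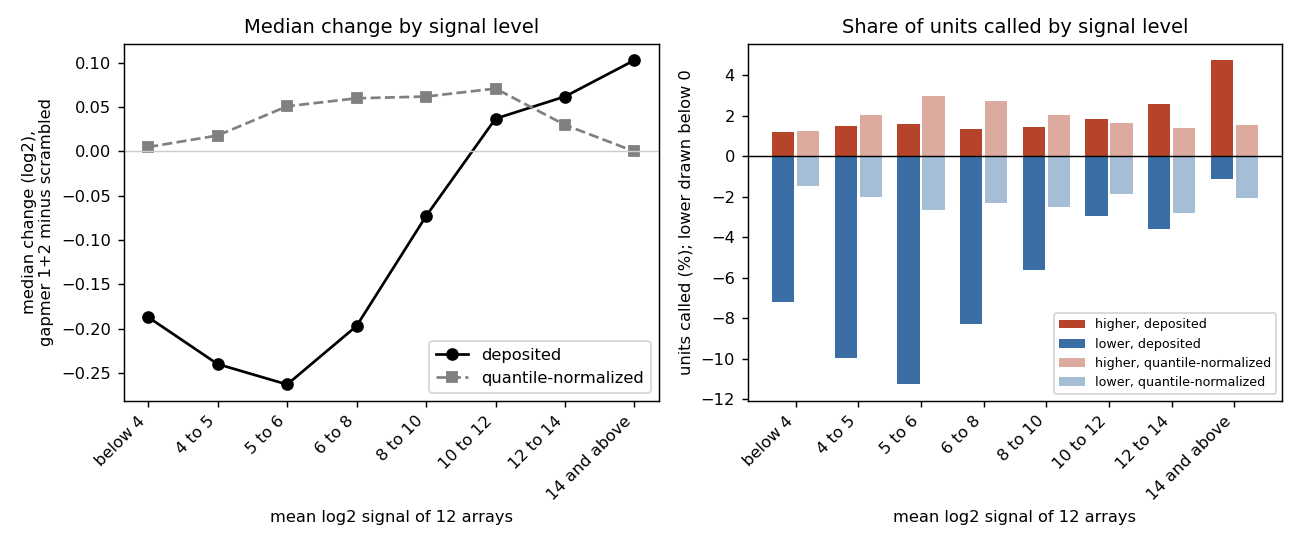
Median log2 change, gapmer 1+2 minus scrambled (left), and share of units called higher (upward bars) or lower (downward bars) in percent (right), by the mean log2 signal of the 12 CYTOR arrays, with deposited and with quantile-normalized values. The lower calls exceed the higher calls in every range below 14 with deposited values, whereas over all units the directions are nearly even after quantile normalization (1468 higher, 1441 lower).

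Among the 21396 named genes tested, 1951 were called (9.12%), 303 of them higher (1.42%) and 1648 lower (7.70%). After quantile normalization 781 were called (3.65%), 435 higher (2.03%) and 346 lower (1.62%). The 3 gapmer 1+2 arrays did not overlap the 3 scrambled arrays in 31.3% of the named genes. Leaving out 1 gapmer 1+2 array lowered the count to between 793 and 840 genes, and it was 1094, 1220 and 1407 without scrambled replicate 1, 2 and 3. A total of 262 genes were called higher both ways and 340 lower both ways. Protein-coding genes made up 166 of the higher calls and 754 of the lower calls with deposited values, of 12970 tested (1.28% and 5.81%). After quantile normalization 243 (1.87%) were higher and 146 (1.13%) lower, and 142 and 143 were called in the same direction both ways. Of the microRNA units 111 of 761 (14.6%) were called lower, and of the protein-coding units 837 of 14101 (5.94%). After quantile normalization these counts were 28 and 162, and no test between classes was run.

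A stricter set of genes was called whichever scrambled group was used. It required a limma call against each of the 3 scrambled groups in a fit of all 36 arrays, a call after quantile normalization, and gapmer 1+2 values outside the range of all 9 scrambled arrays. This left 108 genes higher (0.505%) and 281 lower (1.31%), of which 51 and 114 were protein-coding. By class the 389 genes comprised 165 protein-coding genes, 145 pseudogenes, 36 long non-coding RNAs, 28 microRNAs, 2 snoRNAs and 13 others.

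OR10Q1, an olfactory receptor gene normally restricted to the nose, had the highest change among the protein-coding genes named here. It read 6.78, 7.25 and 6.83 with gapmer 1+2, against 3.44, 3.50 and 3.64 with scrambled gapmer. The arrays of the 2 groups lay far apart, and the change was 3.43 (SE 0.18, limma adjusted p = 5.77e-05), 3.50 after quantile normalization. FBXO43, which restrains the anaphase-promoting complex in meiosis, read 10.68, 11.42 and 10.89 with gapmer 1+2, against 8.77, 8.90 and 8.23 with scrambled gapmer. Its change was 2.36 (SE 0.46, limma adjusted p = 0.0115). CLN6, a protein of the endoplasmic reticulum mutated in a form of neuronal ceroid lipofuscinosis, read 7.09, 7.0 and 7.10 with gapmer 1+2, and 4.46, 5.66 and 5.61 with scrambled gapmer. The gapmer 1+2 arrays of CLN6 were nearly equal, the first scrambled array was the lowest, and the change was 1.82 (SE 0.30, limma adjusted p = 0.00613).

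Several further protein-coding genes were higher by more than 2-fold, which is 1 on the log2 scale. TBC1D2B, a Rab GTPase-activating protein, read 9.82, 10.14 and 10.27 with gapmer 1+2, against 8.37, 8.0 and 8.91 with scrambled gapmer, a change of 1.65. GMPS, which makes guanosine monophosphate, read 12.28, 12.38 and 12.12 with gapmer 1+2, against 11.28, 10.97 and 10.25 with scrambled gapmer, a change of 1.43. BCL2L12, an atypical member of the BCL2 family, read 10.85, 11.35 and 11.40 with gapmer 1+2, against 8.90, 10.02 and 9.93 with scrambled gapmer, a change of 1.58. In none of these 3 genes did the groups overlap. LRRC34, a leucine-rich repeat protein, changed by 1.43. EFL1, a GTPase of ribosome maturation, changed by 1.38, and VPS4B, the ATPase that recycles the ESCRT membrane-cutting complex, by 1.37. DNAJA4, an HSP40 co-chaperone, changed by 1.35. H4C12, a replication-dependent histone H4 gene, changed by 1.56, and NAP1L4, a histone chaperone, by 1.32.

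These genes differed in how far they rested on the scrambled group. OR10Q1, FBXO43, CLN6, TBC1D2B, GMPS, EFL1 and VPS4B, 7 of the 12, were in the set that held against all scrambled arrays. BCL2L12 changed by 0.66 against the LINC00158 scrambled arrays and was not called there (limma adjusted p = 0.284). H4C12 changed by 0.17 and 0.62 with the LINC00158 and the RP11-161H23.5 scrambled arrays as control. When 1 array was left out, H4C12 was called in 2 of 6 fits, NAP1L4 and VPS4B in 1 of 6 each and DNAJA4 in 5 of 6, and the other 8 in all 6.

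ISL1, a LIM homeobox transcription factor of neuron, heart and pancreas development, was the lowest of the protein-coding genes under the same rule. It read 4.97, 5.29 and 4.69 with gapmer 1+2, against 7.05, 7.44 and 7.11 with scrambled gapmer. The change was -2.22 (SE 0.23, limma adjusted p = 0.00150), and -1.91 after quantile normalization. NUP133, a scaffold protein of the nuclear pore, read 4.97, 5.69 and 5.94 with gapmer 1+2, against 7.81, 7.70 and 7.33 with scrambled gapmer, a change of -2.08 (SE 0.27). SYT11, a synaptotagmin of vesicle traffic, read 4.28, 5.24 and 4.38 with gapmer 1+2, against 6.57, 6.69 and 6.47 with scrambled gapmer, a change of -1.94 (SE 0.31). For these 3 genes the gapmer 1+2 arrays read at the level of dim units, and no array of one group reached the other.

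VIM, which encodes the intermediate filament protein vimentin, read 4.18, 4.41 and 4.69 with gapmer 1+2, and 6.98, 6.34 and 5.57 with scrambled gapmer. Its change of -1.87 (SE 0.38, limma adjusted p = 0.0144) was -1.54 after quantile normalization (limma adjusted p = 0.0479), and the scrambled arrays were themselves spread over more than 1 log2 unit. SAMD9L, an interferon-induced restriction factor, read 8.55, 8.82 and 8.84 with gapmer 1+2, against 10.81, 10.42 and 10.45 with scrambled gapmer. Among the 12 protein-coding genes with the lowest change it had the highest signal with gapmer 1+2, and its change of -1.82 (SE 0.32) was -1.76 after quantile normalization. DOCK4, an activator of the GTPases Rac and Rap, changed by -1.77. ZNF205 and ZNF226, zinc finger proteins, changed by -1.81 and -1.75.

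MSL3B, a relative of the chromatin protein MSL3, changed by -1.80 and EOLA2, an ASCH domain protein, by -1.70. NBDY, a microprotein of the mRNA decapping machinery, changed by -1.69, and RNASE6, a secreted antimicrobial ribonuclease, by -1.71. Of these 12 lower genes, 11 also held against all 9 scrambled arrays. The exception was RNASE6, at -0.23 against the RP11-161H23.5 scrambled arrays (limma adjusted p = 0.610). VIM lost its call in 1 of the 6 fits that left out 1 array (adjusted p up to 0.0542), and the other 11 were called in all 6.

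**Figure D3:**
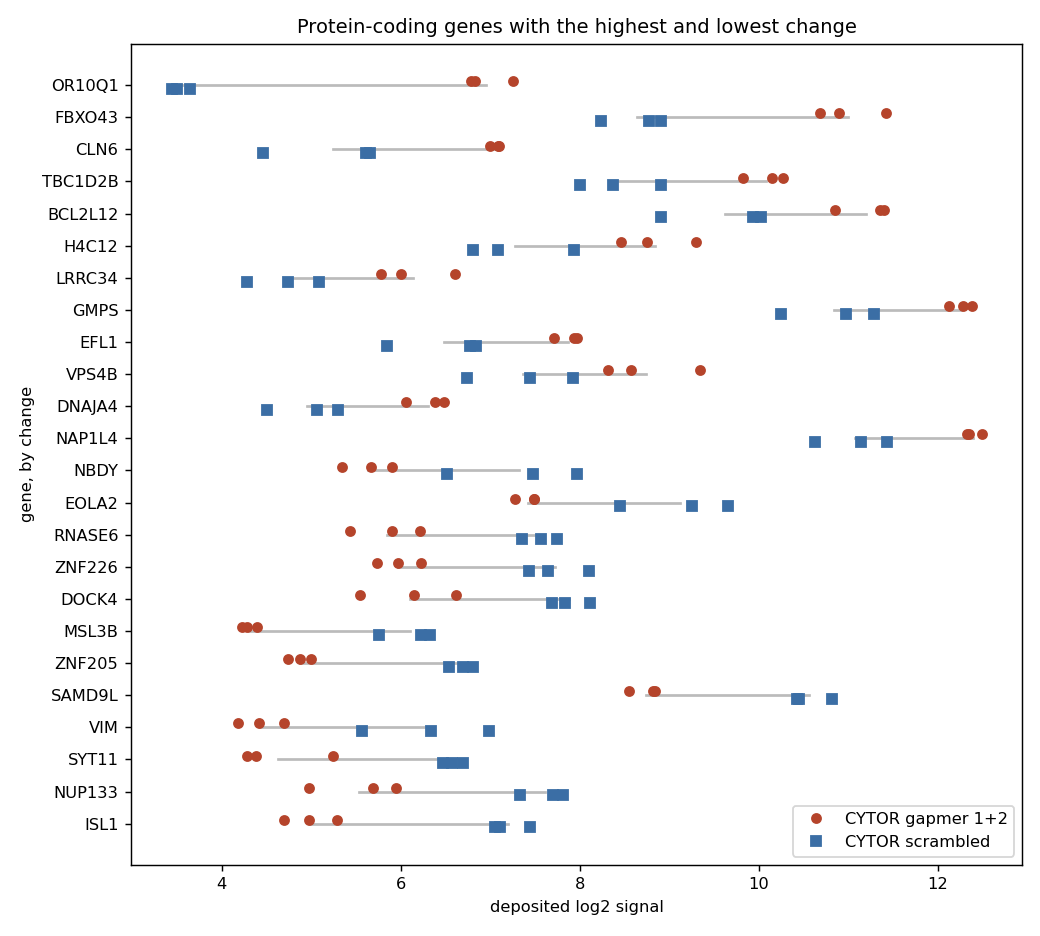
Deposited log2 signal on each array (circles gapmer 1+2, squares scrambled) of the 12 protein-coding genes with the highest and the 12 with the lowest change under the naming rule, sorted by change. In no gene do the arrays of the groups overlap, which the rule required, and the range within the scrambled group is wide in CLN6, VIM and NBDY.

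The other named genes with the highest and lowest changes were small structural RNAs, microRNAs and pseudogenes, both of structural RNAs and of protein-coding genes. RPPH1, the RNA subunit of RNase P that trims the leader of transfer RNA precursors, read 11.99, 11.73 and 11.80 with gapmer 1+2, and 6.63, 9.51 and 9.09 with scrambled gapmer. The gapmer 1+2 arrays were close together, while the first scrambled array lay well below the others. The change was 3.43 (SE 0.58, limma adjusted p = 0.00730), and it stayed between 2.54 and 3.98 when any 1 array was left out. RNY3P16, a pseudogene of a Y RNA, changed by 1.65, the U6 pseudogenes RNU6-1284P and RNU6-806P by 1.61 and 1.60, and HIST1H2BPS3, a histone H2B pseudogene, by 1.57. Lower were H3P38, a histone H3 pseudogene (-2.44), RNU6-632P (-2.29), TMA16P2 (-2.22), the 7SK pseudogene RN7SKP255 (-2.14) and the 5S ribosomal RNA pseudogene RNA5SP476 (-2.14). Such genes have near-identical copies, so the copy whose RNA a unit reads is uncertain. RNU6-1284P was called in none of the 6 fits with 1 array left out and RNU6-806P in 2.

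The microRNAs that met the naming rules have different seeds, the bases 2 to 8 that pair with target messages. Their mature sequences, from RefSeq on GRCh38.p14, are shown 5′ to 3′ with the seed in capitals, since MIR548AE2 and MIR7702 were the microRNAs among the genes with the highest and lowest changes and MIR3908 comes up in the comparison with single gapmers.
hsa-miR-548ae-3p: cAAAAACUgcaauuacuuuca
hsa-miR-7702: cUUAGACUgccagacucccuga
hsa-miR-3908: gAGCAAUGuagguagacuguuu
The hsa-miR-548ae-3p sequence lies at chr5:58530047-58530067 on the minus strand, hsa-miR-7702 at chr9:111271193-111271214 on the minus strand and hsa-miR-3908 at chr12:123536413-123536434 on the plus strand. The seed AAAAACU is carried by 7 of 2370 mature human microRNAs in the same table, and the seeds UUAGACU and AGCAAUG by 1 each.

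MIR548AE2, of the large primate miR-548 family, read 7.89, 8.26 and 8.45 with gapmer 1+2, against 5.28, 4.49 and 4.89 with scrambled gapmer. The change was 3.31 (SE 0.36, limma adjusted p = 0.00151), with a wide gap between the groups. MIR7702 read 4.17, 3.98 and 3.99 with gapmer 1+2, against 6.11, 6.22 and 5.83 with scrambled gapmer, a change of -2.01 (SE 0.17, limma adjusted p = 0.000716). Both held against all 9 scrambled arrays. The units are named for the microRNA genes, and the files do not say whether their probes read the precursor or the mature form.

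Gene lists of the pathways active in CLL B cells were counted next. Each list is given by the members called and by its median, read beside the median of all named genes, which was -0.157 with deposited values and 0.063 after quantile normalization.

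Interferon response genes were lower or uncalled. These genes encode antiviral proteins that cells make after sensing foreign nucleic acid. Of 34 members tested, 0 were called higher and 8 lower, beside 7.70% lower among all named genes, with a median of -0.375, which is -0.22 relative to all named genes (-0.28 relative to them after quantile normalization). SAMD9L was described above. IFIT1, which binds viral RNA that lacks host cap methylation, read 4.08, 4.21 and 4.08 with gapmer 1+2, against 5.42, 5.10 and 5.49 with scrambled gapmer, a change of -1.21 (SE 0.22, limma adjusted p = 0.00902). CMPK2, a mitochondrial nucleotide kinase, changed by -1.44 and RSAD2, the antiviral enzyme viperin, by -1.07. IFIT2 changed by -1.11, DDX60 by -0.71, and the oligoadenylate synthetase family members OASL and OAS3 by -0.67 and -0.65. Apart from SAMD9L these members were dim with gapmer 1+2, at mean signals under 7. The well-measured member ISG15, a ubiquitin-like modifier, read 13.91, 13.30 and 13.27 with gapmer 1+2 and 12.61, 13.49 and 13.41 with scrambled gapmer, and the groups overlapped.

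After quantile normalization SAMD9L and IFIT1 were called and the other 6 were not. SAMD9L and IFIT1 were also the 2 members outside the range of all 9 scrambled arrays that were called against each scrambled group. Leaving out 1 array left between 3 and 5 members called lower. Many promoters of this list hold the interferon-stimulated response element, searched as 2 copies of GAAA with 2 bases of any kind between them, or of TTTC so spaced for the other strand. It occurred in 18 of 27 list members with a promoter in the RefSeq table (66.7%), in a window from 250 bases before to 50 after the start, against 996 of all 27305 promoters (3.65%). Among members called lower it was in 3 of 6 promoters, and among the others in 15 of 21. A match describes the letters only. Windows of the 3 lower members are shown on their own strand (GRCh38.p14), with the element in capitals.
DDX60: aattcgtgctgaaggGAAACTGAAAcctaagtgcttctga
IFIT1: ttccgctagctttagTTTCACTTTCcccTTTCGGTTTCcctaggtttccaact
OAS3: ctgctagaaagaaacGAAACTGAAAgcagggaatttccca
They lie at chr4:168318816-168318855 on the minus strand for DDX60, chr10:89392492-89392544 on the plus strand for IFIT1 and chr12:112938316-112938355 on the plus strand for OAS3.

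Sensors of nucleic acid and the NF-kB pathway gave few calls. Of 19 sensing genes tested 1 was lower, IRF5, a transcription factor downstream of endosomal receptors, which read 4.79, 4.90 and 5.25 with gapmer 1+2 and 6.02, 6.14 and 5.85 with scrambled gapmer (change -1.02, SE 0.20). Its change was -0.69 after quantile normalization and not called (limma adjusted p = 0.0757). Of 21 NF-kB genes 2 were lower and 0 higher, a share close to the 7.70% lower among all named genes. NFKBIZ, an atypical nuclear inhibitor protein, changed by -1.14 and TNFAIP2, a target of tumour necrosis factor, by -1.18. Neither was called after quantile normalization (limma adjusted p = 0.0532 for NFKBIZ and 0.0651 for TNFAIP2), and NFKBIZ was not called with the RP11-161H23.5 scrambled arrays as control (limma adjusted p = 0.237). The NF-kB median of -0.41 was -0.26 relative to all named genes and -0.24 relative to them after quantile normalization. With the RP11-161H23.5 scrambled arrays as control the list had 4 members higher and 1 lower and a median of -0.04, beside -0.05 for all named genes.

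**Figure D4:**
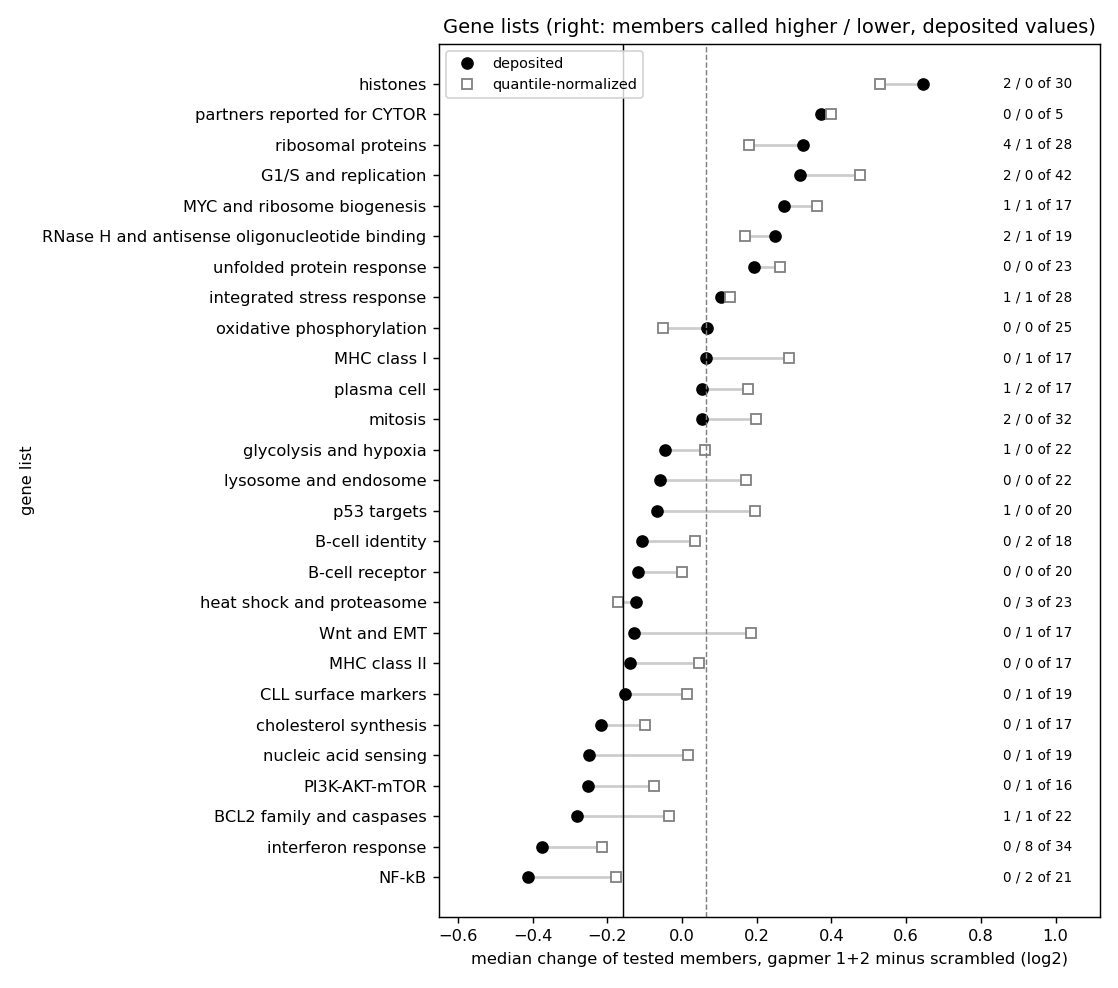
Median log2 change of the tested members of 27 gene lists, gapmer 1+2 minus scrambled, with deposited values (circles) and after quantile normalization (squares). Lines mark the median of all named genes (solid deposited, dashed quantile-normalized), and the numbers at the right give members called higher and lower of those tested. Histone and G1/S lists lie right of both lines and the interferon and NF-kB lists left of both, while few members of any list were called.

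Few genes of the cell cycle were called, and those called were higher. Of 42 G1/S and replication genes 2 were higher and 0 lower, beside 1.42% higher among all named genes. The list had 30 members above 0, and its median of 0.32 was 0.47 relative to all named genes and 0.41 relative to them after quantile normalization. CDK2, the kinase that drives entry into S phase, read 7.37, 7.16 and 7.71 with gapmer 1+2, against 5.96, 6.89 and 5.81 with scrambled gapmer, a change of 1.19 (SE 0.33, limma adjusted p = 0.0410). MCM10, which helps to activate the replicative helicase, read 5.09, 5.34 and 5.18 with gapmer 1+2, against 4.15, 4.32 and 4.13 with scrambled gapmer, a change of 1.00 (SE 0.20, limma adjusted p = 0.0124). MCM10 was the only G1/S member that held against all 9 scrambled arrays, and it was called in all 6 fits with 1 array left out, CDK2 in 1 of them. With the LINC00158 scrambled arrays as control CDK2 changed by 0.13.

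Of 32 mitosis genes 2 were higher and 0 lower, beside 1.42% higher among all named genes. The list median of 0.05 was 0.21 relative to all named genes. CCNA2, the S phase and mitotic cyclin A2, read 12.81, 13.03 and 13.06 with gapmer 1+2, against 11.74, 12.10 and 11.98 with scrambled gapmer, a change of 1.03 (SE 0.24, limma adjusted p = 0.0227). KIF23, a kinesin of cytokinesis, read 9.22, 9.5 and 9.84 with gapmer 1+2, against 8.18, 8.41 and 8.79 with scrambled gapmer, a change of 1.06 (SE 0.22, limma adjusted p = 0.0152). Both stayed called after quantile normalization, and with 1 array left out CCNA2 was called in 2 and KIF23 in 5 of the 6 fits. The proliferation marker MKI67 changed by 0.76 and was not called (limma adjusted p = 0.104). The E2F site GGCGGGAA, or TTCCCGCC on the other strand, was in 8 of 36 G1/S promoters (22.2%), against 868 of all 27305 (3.18%), and in 0 of the 1 called member with a promoter in the table.

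Replication-dependent histones had the highest median of the 27 lists, at 0.65, which was 0.80 relative to all named genes and 0.47 relative to them after quantile normalization. Of 30 members 2 were called higher and 0 lower. H2BC7 read 10.95, 11.57 and 11.38 with gapmer 1+2, against 9.94, 10.61 and 10.27 with scrambled gapmer, a change of 1.03. H4C2 read 5.81, 5.88 and 5.81 with gapmer 1+2, against 4.35, 4.78 and 5.07 with scrambled gapmer, a change of 1.10. Each was called in 2 of the 6 fits with 1 array left out. Neither H2BC7 nor H4C2 was called against the other scrambled groups, where their changes ran from 0.10 to 0.30. The histone median itself was -0.27 with the LINC00158 scrambled arrays as control, close to the -0.28 of all named genes there. With the RP11-161H23.5 ones it was 0.11, beside -0.05 for all named genes. How far the list lay above all named genes thus depended on the scrambled group.

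Survival, p53 and growth genes gave isolated calls. In the BCL2 family and caspases (22 tested) BCL2L12 was higher and BIK, a pro-apoptotic BH3-only protein, lower (-0.69). BIK was not called after quantile normalization (-0.41, limma adjusted p = 0.198) and was called in 1 of the 6 fits with 1 array left out. The CLL survival genes BCL2 and MCL1 changed by 0.26 and 0.08 and were not called (limma adjusted p = 0.506 and 0.757). MCL1 read 8.40, 8.45 and 8.36 with gapmer 1+2 and 8.32 on each of the 3 scrambled arrays. XPC, a DNA damage sensor and the 1 call among 20 p53 targets, changed by 0.96. It was called in 1 of the 6 fits with 1 array left out and not called with the other scrambled groups as control, at 0.28 (LINC00158, limma adjusted p = 0.555) and 0.59 (RP11-161H23.5, limma adjusted p = 0.148). In the PI3K-AKT-mTOR list (16 tested) PDPK1, which activates AKT, changed by -1.46, a call lost after quantile normalization (limma adjusted p = 0.0503). In the Wnt and EMT list (17 tested) VIM was the 1 call.

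Few B-cell genes were called. Of 20 B-cell receptor genes 0 were called by limma (1 at an unadjusted p under 0.05), and of 18 B-cell identity genes 0 were higher and 2 lower. These were TCF3, the E2A transcription factor (-0.60), and IKZF3, the lymphoid zinc finger protein Aiolos (-1.0). Both calls were lost after quantile normalization (limma adjusted p = 0.0801 for TCF3 and 0.0727 for IKZF3), and with 1 array left out TCF3 was called in 0 and IKZF3 in 1 of the 6 fits. CD79A, the signalling chain of the receptor, read 12.86, 12.51 and 12.99 with gapmer 1+2, and 12.42, 13.03 and 12.05 with scrambled gapmer, with overlapping groups. Of 19 CLL surface markers 1 was lower, CD40, the receptor for T-cell help, which changed by -0.94 (limma adjusted p = 0.0496). It was not called after quantile normalization, and it was at 0.04 with the RP11-161H23.5 scrambled arrays as control.

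Few plasma cell genes were called, and those in both directions. Of 17 tested 1 was higher and 2 lower, beside 1.42% higher and 7.70% lower among all named genes. MZB1, an endoplasmic reticulum co-chaperone of antibody secretion, read 10.72, 11.11 and 10.97 with gapmer 1+2, against 9.53, 10.46 and 9.64 with scrambled gapmer, a change of 1.06 (SE 0.25, limma adjusted p = 0.0249). PRDM1, the plasma cell regulator BLIMP1, read 7.05, 6.41 and 6.73 with gapmer 1+2, against 8.09, 7.68 and 8.72 with scrambled gapmer, a change of -1.43 (SE 0.32, limma adjusted p = 0.0195). CD38, a surface NAD glycohydrolase used in CLL prognosis, read 6.93, 5.83 and 6.38 with gapmer 1+2, against 7.74, 7.14 and 7.72 with scrambled gapmer, a change of -1.15. After quantile normalization PRDM1 and CD38 were no longer called. MZB1 was, together with the secretory pathway genes DERL3 (1.29) and SEC11C (1.01). With the LINC00158 scrambled arrays as control MZB1 changed by 0.51 and was not called (limma adjusted p = 0.244). With 1 array left out MZB1 was called in 2, PRDM1 in 3 and CD38 in 2 of the 6 fits.

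Few antigen presentation genes were called. Of 17 MHC class I genes 0 were higher and 1 lower. B2M, the shared light chain of class I molecules, read 18.93, 19.09 and 19.09 with gapmer 1+2, against 19.54 on each scrambled array. The change of -0.50 lies close under the ceiling of the scale, and the value 19.54 was also on all 6 scrambled arrays of the other experiments. HLA-B changed by 0.95 (limma adjusted p = 0.0618) and was called only after quantile normalization, at 0.91 (limma adjusted p = 0.0482). Of 17 MHC class II genes 0 were called by limma (1 at an unadjusted p under 0.05), and HLA-DRA read 14.22 on each gapmer 1+2 array, against 13.98, 14.60 and 14.66 with scrambled gapmer.

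Of 28 ribosomal proteins 4 were higher and 1 lower, beside 1.42% higher and 7.70% lower among all named genes. The list had a median of 0.33. Relative to all named genes the median was 0.48, and 0.12 after quantile normalization. RPLP1, of the ribosomal stalk, read 19.83 on each gapmer 1+2 array, against 19.03, 19.06 and 19.11 with scrambled gapmer, a change of 0.76. RPL18 changed by 1.06, RPL12 by 0.72 and RPL35 by 0.60. Within gapmer 1+2 these bright members hardly varied, and RPL35 read 18.66 on all 3 arrays. RPL5 was lower, at -1.46, but its unit was far dimmer than those of the 4 higher members. It averaged 5.12 with gapmer 1+2 and 6.57 with scrambled gapmer. RPLP1 and RPL18 remained called after quantile normalization and RPL12, RPL35 and RPL5 did not. With the LINC00158 scrambled arrays as control RPL18 was not called (0.68, limma adjusted p = 0.357), while RPLP1 was (0.72, limma adjusted p = 0.00227). In the list of MYC and ribosome biogenesis (17 tested) FBL, a nucleolar methyltransferase, was higher by 0.63 and MXD1, an antagonist of MYC, lower by -0.96, neither of them called after quantile normalization. MYC itself changed by 0.42 and was not called (limma adjusted p = 0.366).

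Stress genes gave single calls in each direction, apart from the heat shock list. Of 28 integrated stress response genes ATF4, its central transcription factor, was higher by 0.60 and NUPR1, a stress-induced chromatin protein, lower by -1.01. Both calls were lost after quantile normalization. Of 23 unfolded protein response genes 0 were called by limma (5 higher and 1 lower at an unadjusted p under 0.05). Of 23 heat shock and proteasome genes 3 were lower and 0 higher, beside 7.70% lower among all named genes. HSPH1, an HSP110 nucleotide exchange factor, read 10.08, 9.61 and 10.44 with gapmer 1+2, against 11.41, 11.11 and 11.89 with scrambled gapmer, a change of -1.43 (SE 0.30, limma adjusted p = 0.0157). HSP90AA1, the stress-inducible HSP90, changed by -0.65 and PSMD14, a deubiquitinase of the proteasome lid, by -0.90. Each was called in 0 of the 6 fits with 1 array left out. PSMD14 was not called after quantile normalization (limma adjusted p = 0.0521), and HSP90AA1 changed by -0.08 with the RP11-161H23.5 scrambled arrays as control. HSPH1 held against all 9 scrambled arrays.

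Metabolic lists gave 2 calls. PDK1, which shuts pyruvate out of the mitochondrion, was the 1 call among 22 glycolysis and hypoxia genes. It read 7.23, 7.35 and 7.2 with gapmer 1+2, against 5.97, 5.93 and 6.27 with scrambled gapmer, a change of 1.20 (SE 0.25, limma adjusted p = 0.0164), and it held against all 9 scrambled arrays. LSS, lanosterol synthase, was the 1 call among 17 cholesterol genes, at -1.18. It was not called after quantile normalization (-0.88, limma adjusted p = 0.101) and was called in 1 of the 6 fits with 1 array left out. Of 25 genes of oxidative phosphorylation 0 were called by limma (1 at an unadjusted p under 0.05).

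Genes of the route and the action of a gapmer were examined as well. Gapmers enter through endosomes, bind many proteins and act through RNase H1. Of 22 lysosome and endosome genes 0 were called by limma with deposited values (3 higher and 1 lower at an unadjusted p under 0.05). After quantile normalization the lysosomal protease CTSA (1.03) and ATP6V1H, a subunit of the proton pump (1.31), were higher. Of 19 genes for RNase H and oligonucleotide-binding proteins 2 were higher and 1, HSP90AA1, lower. STX5, a Golgi syntaxin, read 7.04, 7.11 and 7.05 with gapmer 1+2, against 5.73, 6.35 and 6.0 with scrambled gapmer, a change of 1.04. SFPQ, a paraspeckle protein, read 18.76, 18.77 and 18.76 with gapmer 1+2, against 17.89, 17.87 and 17.77 with scrambled gapmer, a change of 0.92 that was no longer called after quantile normalization. RNASEH1 read 5.76, 5.93 and 5.91 with gapmer 1+2, and 5.78, 6.48 and 5.79 with scrambled gapmer, with overlapping groups. Of 5 tested genes for proteins reported to bind CYTOR or act with it, 0 were called by limma (0 at an unadjusted p under 0.05), with changes from 0.13 for EZH2 to 0.70 for KHDRBS1.

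The other scrambled groups gave a further view of the listed genes. All 8 interferon genes called lower were also lower in value against the scrambled arrays of both other experiments. Counts over the whole interferon list were 0 higher and 11 lower against the LINC00158 scrambled arrays (beside 17.2% of all named genes called, 1.91% higher and 15.3% lower), and 2 higher and 9 lower against the RP11-161H23.5 scrambled arrays (beside 23.9%, with 9.70% higher and 14.2% lower). PRDM1 and CD38 were likewise lower against each group. The G1/S list ran from 2 higher and 5 lower against the LINC00158 scrambled arrays to 16 higher and 2 lower against the RP11-161H23.5 scrambled arrays. Against the CYTOR scrambled arrays it had 4 higher and 0 lower in the same fit. The unfolded protein response list had 3 members higher and 0 lower against the LINC00158 scrambled arrays, and 13 higher and 0 lower of 23 against the RP11-161H23.5 ones. These comparisons share the gapmer 1+2 arrays and are not independent.

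**Figure D5:**
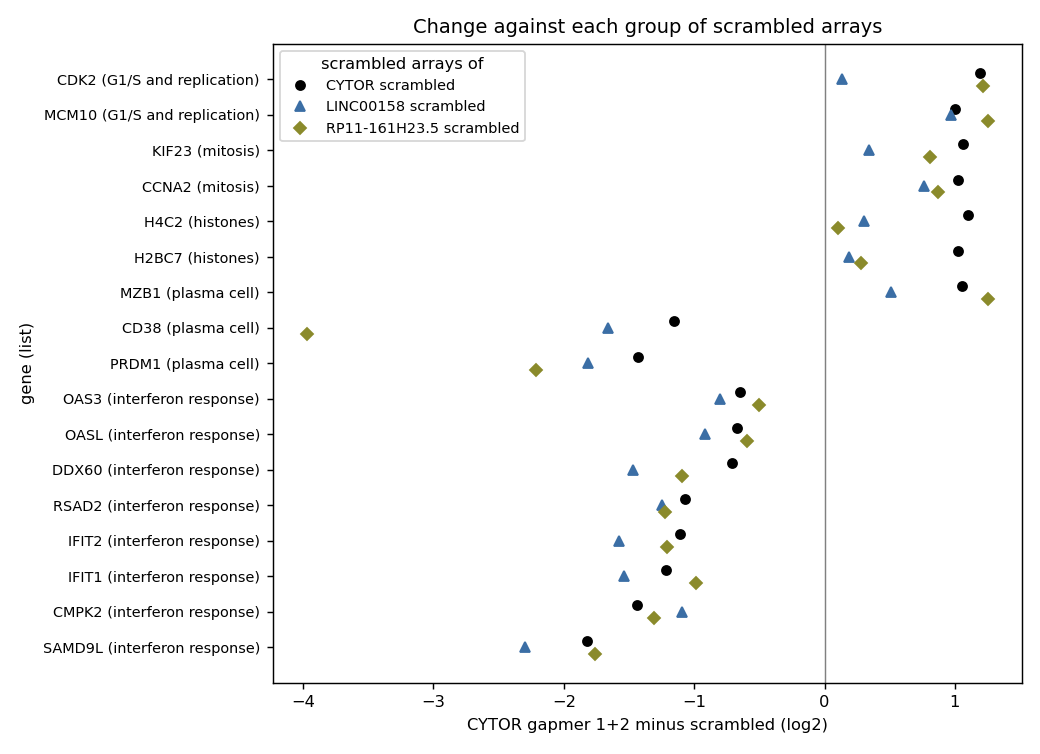
Log2 change of each called member of 5 gene lists, gapmer 1+2 minus scrambled, against the scrambled arrays of the CYTOR, the LINC00158 and the RP11-161H23.5 experiment. The interferon genes, PRDM1 and CD38 lie left of 0 against every scrambled group, while CDK2, KIF23, H4C2 and H2BC7 lie close to 0 against at least 1 of them.

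Whether the combination differed from its parts was asked within the set of treated CYTOR arrays, where no scrambled array enters. Limma called 0 of 67888 units (0% of those tested) between gapmer 1+2 and the mean of gapmer 1 and gapmer 2, and the lowest adjusted p was 0.405. It also called 0 units against gapmer 1 alone (3793 at an unadjusted p under 0.05) and 0 against gapmer 2 alone (4979). At an unadjusted p under 0.05 there were 4462 units (6.57%) and 995 named genes (4.65%), 624 higher and 371 lower. The median standard error of a unit's difference was 0.24.

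The genes that stood apart most by the moderated t statistic are given as values, none of them called. MIR3908, whose sequence is shown above, read 5.10 ± 0.19 (SD, n = 3) with gapmer 1+2, against 4.18 ± 0.17 with gapmer 1 and 4.02 ± 0.19 with gapmer 2 (n = 3 each). POPDC2, a cyclic AMP-binding membrane protein, averaged 7.58 with gapmer 1+2, against 7.19 with gapmer 1 and 6.11 with gapmer 2. The pseudogenes NPM1P19 and RPS12P23 differed from the mean of the single gapmers by 0.96 and 0.99. TNFAIP3, the NF-kB inhibitor A20, averaged 13.72 ± 0.12 (SD, n = 3) with gapmer 1+2, against 14.80 ± 0.23 with gapmer 1 and 14.05 ± 0.17 with gapmer 2, a difference of -0.70. ITM2B, a membrane protein of the BRICHOS family, differed by -0.89, TMEM60 by -0.99 and the pseudogene TMA16P2 by -0.90. The CYTOR unit averaged 6.27 with gapmer 1+2, against 6.93 with gapmer 1 and 6.56 with gapmer 2, a difference of -0.48 (SE 0.21, limma adjusted p = 0.748).

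The change with both gapmers was then compared with the same change in the LINC00158 and RP11-161H23.5 experiments. The difference of changes, CYTOR minus the mean of the other two, was called for 3720 of 21258 named genes (17.5%), with 1702 higher (8.01%) and 2018 lower (9.49%). Among units 5.63% were higher and 12.6% lower (3823 and 8523), and after quantile normalization 4875 were higher and 6013 lower. Of 12702 protein-coding genes 15.1% were called, 9.53% higher and 5.55% lower. Identical values were counted only for the scrambled and the treated CYTOR arrays. Whether the treated arrays of the other experiments form sets of their own is not shown here. For the CYTOR part of the difference, set and treatment cannot be told apart, as above. Of the MHC class I genes 10 of 17 were higher and 0 lower by this difference. Their median change was 0.06 with the CYTOR gapmers, -1.43 with the LINC00158 gapmers and -0.85 with the RP11-161H23.5 gapmers. HLA-B, the tapasin gene TAPBP and the immunoproteasome subunits PSMB8, PSMB9 and PSMB10 were among the 10.

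Of the MHC class II genes 8 of 17 were higher and 0 lower, with medians of -0.14 with the CYTOR, -1.30 with the LINC00158 and -0.82 with the RP11-161H23.5 gapmers. Among B-cell receptor genes 8 of 20 were higher and 0 lower, with CD79A, CD79B, SYK and LYN among the 8. Among integrated stress response genes 11 were higher and 1 lower of 28. These counts stand beside 8.01% higher and 9.49% lower among all named genes, and they were not particular to these lists. More members were higher than lower in each pathway list except cholesterol synthesis (0 and 2), PI3K-AKT-mTOR (2 and 2) and nucleic acid sensing (0 and 0). Of 30 histone genes 12 were higher. Of 34 interferon genes 8 were higher and 1 lower. ISG15 had a difference of 2.80 (limma adjusted p = 7.71e-05), whereas IFIT1 was the 1 member lower, at -1.25 (limma adjusted p = 0.00433). SAMD9L, with a difference of -0.24, was not called (limma adjusted p = 0.782). Of the 12 protein-coding genes with the highest change 9 also differed from the other experiments, and of the 12 with the lowest change 6, all in the direction of their own change. Among them were OR10Q1 (3.72), CLN6 (2.83), TBC1D2B (2.39), ISL1 (-2.52), VIM (-2.37) and DOCK4 (-2.35), while FBXO43 (1.18), GMPS (0.88), NUP133 (-1.02) and SYT11 (-0.89) were not called.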

How the data were processed

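RNA was measured on Affymetrix whole-transcriptome arrays. The authors deposited log2 values for 135750 units, which come from RMA, run in Expression Console by Affymetrix, per the submitters' processing notes. The sources used here give no version or genome build, and do not say which arrays were summarised together. Log2 was read from the values (1.96 to 19.93). Of the units, 36176 had 1 gene symbol, 1119 several and 98455 none, and only the first were named, by the brightest unit of a gene. Gene classes came from a RefSeq table (GRCh38.p14), and 0 columns of values were left unused.

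Testing was restricted to units whose mean reached the median over all units, plus the 2 targets. A model of 4 group means was fitted to the 12 CYTOR arrays with limma 3.58.1 in R 4.3.3 (lmFit, eBayes; 8 residual and 3.11 prior degrees of freedom). Calls needed a Benjamini-Hochberg adjusted p under 0.05 over all units, two-sided. The difference between experiments and the comparisons with the other scrambled groups used all 36 arrays. The fit was tested on simulated data. Quantile normalization was applied on top of the deposited values.

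Named genes were CYTOR and its relative MIR4435-2HG. Added were the 12 highest and 12 lowest protein-coding and 6 highest and 6 lowest other genes called with both settings. These also needed arrays that did not overlap, a brighter group of at least 6 and no array at the ceiling. Each list gave at most 4 called members, or else 2 by size of change. The comparison with single gapmers gave the 4 highest and 4 lowest by t. The difference between experiments gave the 6 highest and 6 lowest protein-coding genes. Genes outside this rule (such as ISG15, CD79A, MYC, BCL2, MCL1, HLA-B, RNASEH1, the members found after quantile normalization and those named for the difference between experiments) were chosen after their values were seen. The groups, lists and rules were chosen with earlier results of these data known. Gapmer sequences were not used here.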

Additional observations from a re-analysis of the deposited data

Results flagged for a closer look

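The change with gapmer 1+2 was tested for a difference between the CYTOR experiment and the mean of the LINC00158 and RP11-161H23.5 experiments in a limma fit of all 36 arrays. A difference was called for 12346 of 67895 units (18.2%), with 3823 higher and 8523 lower. The following 12 protein-coding genes had the highest and lowest such differences, and each is listed because this test called it, with deposited and with quantile-normalized values.

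OR10Q1 differed by 3.72, from a change of 3.43 with the CYTOR gapmers, -0.69 with the LINC00158 gapmers and 0.10 with the RP11-161H23.5 gapmers. BCL2L12 differed by 2.94 (own changes 1.58, -1.99 and -0.72 in the same order). MAP2K2, the kinase MEK2, differed by 3.49 (1.32, -3.08 and -1.26), and its scrambled CYTOR arrays were widely spread (SD 1.14). PCBP1, a poly(C)-binding protein, differed by 3.26 (0.46, -3.25 and -2.35). H1-4, a linker histone, differed by 3.19 (0.36, -3.75 and -1.92), with an SD of 1.63 among its scrambled CYTOR arrays. IFITM1, an interferon-induced membrane protein, differed by 3.12 (0.70, -2.70 and -2.13).

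On the other side, SOX10, a neural crest transcription factor, differed by -3.62 (-0.73, 3.33 and 2.45) and read 4.00 ± 0.23 (SD, n = 3) with CYTOR gapmer 1+2. JAZF1, a zinc finger cofactor, differed by -3.42 (-1.72, 2.75 and 0.65). ARHGEF10 differed by -3.18 (-1.33, 2.55 and 1.16), and EFHD1, a mitochondrial calcium-binding protein, by -3.09 (-0.91, 2.29 and 2.07). XRCC6, the DNA end-binding protein Ku70, differed by -2.93 (-1.14, 1.72 and 1.84), and ANO1, a chloride channel, by -2.67 (-0.27, 2.54 and 2.25). Each of these 12 kept its call in every alternative run for this comparison in which it was tested, including each fit that left out 1 CYTOR array. OR10Q1 apart, the change of each was larger in size in at least 1 of the other experiments than with the CYTOR gapmers.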

How the results depend on the processing

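The count of 7104 units and 1951 named genes called against scrambled gapmer depended on the settings. It was 3340 units and 1040 genes with a filter at the 75th percentile (fewer units tested), 2909 and 781 after quantile normalization, 4054 (1634 higher, 2420 lower) and 1075 with array medians centred, and 3665 and 980 with only the 6 arrays of the contrast. Other scrambled arrays, in a fit of all 36 arrays, gave 10905 and 3673 (LINC00158) and 16618 and 5113 (RP11-161H23.5). In that fit the CYTOR scrambled arrays gave 9797 units and 2777 genes. Without 1 array the counts ran from 3027 (without gapmer 1+2 replicate 1) to 5070 units (without scrambled replicate 3), and from 793 to 1407 genes. The CYTOR unit changed by 0.812 to 1.022 without 1 array, not called, and by 0.057 against the LINC00158 scrambled arrays. Where no cause is named it was not tested.

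Same-numbered gapmer 1+2 and scrambled arrays did not deviate together (r = -0.017, -0.007 and -0.078), so the values show no pairing by number. The labels do not say whether same-numbered arrays were handled together. With the replicate number as a block, CYTOR kept its change of 0.923 but not its call (adjusted p = 0.0599), 5345 units and 1438 genes were called, and 11 of 92 named genes lost their call.

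Uncalled genes that changed sign were KHDRBS1 (-0.130, LINC00158 scrambled arrays), GNLY (0.157, RP11-161H23.5 scrambled arrays), and BLNK (-0.300) and NDUFA10 (-0.168) as the mean of a gene's units; CD40, called, was at 0.040 against the RP11-161H23.5 scrambled arrays. Quantile normalization ended the call of 24 of the 92 genes, but this share understates the loss. The genes named for the highest and lowest changes were picked for being called with both settings, so they could not lose it. Others of the 92, such as KHDRBS1, PAX5, ILF2 and GNLY, were not called and had no call to lose in any run. Of the 1951 named genes called with deposited values, 602 were also called after quantile normalization. Leaving out 1 array ended the call in 149 of 552 gene results, and moved the uncalled changes of ATP5F1C, CD3E, HLA-DMB, ILF2, KHDRBS1 and PAX5 by over 1.5 times. Against the single gapmers every alternative also called 0 units, and the difference between experiments stayed between 8496 and 12411 units. The ceiling and the number of arrays limit the precision.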

Other observations

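A few patterns outside the lists were seen after the values were examined and are given as values. CLN6, TBC1D2B, EFL1 and DNAJA4, 4 of the 12 protein-coding genes with the highest change, are on chromosome 15. On chromosome 15, 13 of 712 named genes tested were called higher both with deposited and with quantile-normalized values (1.83%), against 262 of all 21396 (1.22%). Among the autosomes and X, chromosome 21 had the highest share, 5 of 268 (1.87%), and chromosome 7 the lowest, 7 of 1002 (0.699%).

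Markers of other lineages that were called lay at low signal. Of 5 myeloid markers tested 2 were called lower and 0 higher, and 1 was above 0. Of 4 erythroid and platelet markers tested 1 was called lower and 0 higher, and 2 were above 0. MNDA, a nuclear protein of myeloid and B cells, read 5.75, 5.14 and 5.44 with gapmer 1+2, against 6.87, 7.33 and 7.18 with scrambled gapmer, a change of -1.68 (SE 0.29, limma adjusted p = 0.00715), and it held against all 9 scrambled arrays. S100A9, a calcium-binding protein of neutrophils and monocytes, read 4.43, 3.92 and 4.14 with gapmer 1+2, against 5.25, 5.49 and 4.86 with scrambled gapmer. Its change of -1.04 was not called after quantile normalization (limma adjusted p = 0.0735). ITGA2B, the platelet integrin chain, changed by -0.86 and was not called after quantile normalization either (limma adjusted p = 0.0885).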
